A study of Mus musculus with 378 samples.

Results

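Tbx21, Eomes, Gata3, Bcl6 and Stat4 encode 5 transcription factors that direct helper and cytotoxic T cell fates, and were chosen by name from the 23420 genes of the table. They were followed in T cells taken from B16F10 tumours, a transplanted melanoma of C57BL/6 mice. The compared groups were CD8 cells of mice labelled Il27ra KO, CD8 cells of WT mice, CD4 cells labelled Il27ra KO and CD4 cells of WT mice. Il27ra encodes the specific receptor chain for the cytokine IL-27, and the study asks which T cell genes that cytokine induces in the tumour. Every group came from a B16F10 tumour, and no group of uninjected mice or of other tissue was used here. The labels name no animal, no age and no Cre or promoter, so each genotype and cell type counted as 1 sample whose cells are not replicates, and no test between groups was made.

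Smart-seq2, a full-length cDNA method, was run on single cells in separate wells and on 1 population library for each group. Of 92 labelled-KO CD8, 94 WT CD8, 94 labelled-KO CD4 and 94 WT CD4 single-cell libraries, 74, 67, 78 and 79 had at least 1000 genes above 0 FPKM and were kept. FPKM counts fragments scaled by transcript length and library size, so levels of different genes can be set side by side. The median number of genes above 0 was 2797, 2919, 2650.5 and 2307 in these 4 groups, and the median depth, estimated from the table, was 610431, 449754, 604911 and 323772 reads. The CD4 WT titles carry the part p3 and all others p2, so neither the CD4 genotype difference nor the WT comparison of CD8 with CD4 can be told apart from that part of the titles. Each group's titles also carry their own word: rabbit in labelled-KO CD8, cat in WT CD8, bird in labelled-KO CD4 and dog in WT CD4. The word was not interpreted, and no comparison between these groups, the CD8 genotype difference included, can be told apart from it. The protocol text names CD8+ cells only, and the lineage genes followed the titles: Cd8a or Cd8b1 was above 0 in 97.3% of labelled-KO CD8 and 94% of WT CD8 cells, and Cd4 in 89.7% of labelled-KO CD4 and 79.7% of WT CD4 cells. Cd8a or Cd8b1 was also found in 37.2% and 30.4% of the same CD4 groups.

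Il27ra, the targeted gene, did not follow the label in 1 direction. It was above 0 in 39 of 74 labelled-KO CD8 cells and 26 of 67 WT CD8 cells, and in 41 of 78 labelled-KO CD4 cells and 38 of 79 WT CD4 cells. Its mean log2(FPKM + 1) was 3.25 ± 3.43 in labelled-KO CD8 and 1.57 ± 2.36 in WT CD8, and 3.24 ± 3.34 in labelled-KO CD4 and 3.02 ± 3.41 in WT CD4 (SD over the same cells). In CD4 cells without Foxp3, the factor of regulatory T cells, the label difference was -0.66. The population libraries had 90.8 FPKM in labelled-KO CD8 and 47.6 in WT CD8, and 95.2 FPKM in labelled-KO CD4 and 255.97 in WT CD4, so the labelled-KO library was the higher of the CD8 pair and the lower of the CD4 pair. The table has 1 value for the whole gene (chr8:84030294-84042589, minus strand, GRCm38), which does not show which exons were read. Every genotype direction below therefore follows the label and not a measured loss of the receptor.

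T-bet, the product of Tbx21, drives interferon-gamma production and the type 1 program of helper and cytotoxic cells. Its relative Eomesodermin, from Eomes, binds similar DNA sites and is known in CD8 cells for memory and for persistence under chronic stimulation. Stat4 carries the signal of IL-12 into the nucleus, where it acts with T-bet on type 1 genes. GATA-3 is the master factor of type 2 helper cells, is needed for CD4 development in the thymus, and is also found in regulatory T cells of tissues. Bcl-6 is a repressor that directs follicular helper cells and opposes Blimp-1, the product of Prdm1. IL-27 is known to induce T-bet in naive helper cells.

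In GRCm38 with the GENCODE M21 annotation the 5 genes are protein-coding and lie on different chromosomes. Tbx21 is at chr11:97098071-97115331 (minus strand), Eomes at chr9:118478212-118486132 (plus), Gata3 at chr2:9857078-9890034 (minus), Bcl6 at chr16:23965052-23988852 (minus) and Stat4 at chr1:51987148-52107189 (plus). The 250 bases before the start were searched for TTCNNNGAA, the palindromic form that STAT dimers bind, because the receptor in question signals through STATs. The form occurs in 2306 of 32851 mouse promoter windows of that length (7.02%). It was absent from the windows of Tbx21, Eomes and Gata3 and from both windows of Stat4, and present in both windows of Bcl6. A match describes the letters only, and its absence says nothing about binding. The windows below are those of the T-box pair, which were compared for shared detection, and of Bcl6, the member with matches, from RefSeq on GRCm38.p6, 5′ to 3′ on the gene's strand, with matches in capitals.
Tbx21, chr11:97115332-97115581, minus strand: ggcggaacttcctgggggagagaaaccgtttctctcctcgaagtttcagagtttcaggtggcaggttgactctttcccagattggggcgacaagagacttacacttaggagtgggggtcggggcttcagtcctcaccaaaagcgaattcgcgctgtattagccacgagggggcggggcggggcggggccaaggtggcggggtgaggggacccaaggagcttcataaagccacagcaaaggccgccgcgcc
Eomes, chr9:118477939-118478188, plus strand: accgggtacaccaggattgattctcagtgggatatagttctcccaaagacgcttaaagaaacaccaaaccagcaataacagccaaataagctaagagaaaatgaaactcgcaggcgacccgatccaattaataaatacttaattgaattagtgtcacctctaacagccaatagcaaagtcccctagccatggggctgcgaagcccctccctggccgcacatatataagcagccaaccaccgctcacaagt
Bcl6, chr16:23988853-23989102, minus strand: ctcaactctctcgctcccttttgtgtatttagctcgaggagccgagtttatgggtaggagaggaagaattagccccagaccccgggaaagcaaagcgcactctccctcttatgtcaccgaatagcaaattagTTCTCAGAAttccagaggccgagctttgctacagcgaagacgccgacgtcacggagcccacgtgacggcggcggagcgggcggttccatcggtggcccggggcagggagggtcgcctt
Bcl6, second start, chr16:23981284-23981533, minus strand: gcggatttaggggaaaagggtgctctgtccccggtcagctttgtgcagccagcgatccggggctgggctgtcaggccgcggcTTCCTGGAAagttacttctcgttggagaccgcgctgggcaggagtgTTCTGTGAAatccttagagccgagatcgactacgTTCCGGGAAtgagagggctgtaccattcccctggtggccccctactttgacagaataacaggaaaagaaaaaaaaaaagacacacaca
The upstream Bcl6 window holds 1 match and the window of the second start holds 3, none of which overlap.

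Detection was partial for all 5 members, and no cell held all 5. None of the 5 was above 0 in 6 of 74 labelled-KO CD8 cells, 13 of 67 WT CD8 cells, 5 of 78 labelled-KO CD4 cells and 16 of 79 WT CD4 cells. The cells with none had a median of 2641 genes in labelled-KO CD8, 1627 in WT CD8, 2405 in labelled-KO CD4 and 1849.5 in WT CD4, so they were shallow in the WT groups. A 0 can therefore be a missed transcript. The number of genes detected is given beside some of the shares below and not beside others. Intervals on shares are exact Clopper-Pearson 95% intervals and cover counting error over cells only, since the cells of a group are not replicates. Reads carry no molecular identifiers.

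**Figure D1:**
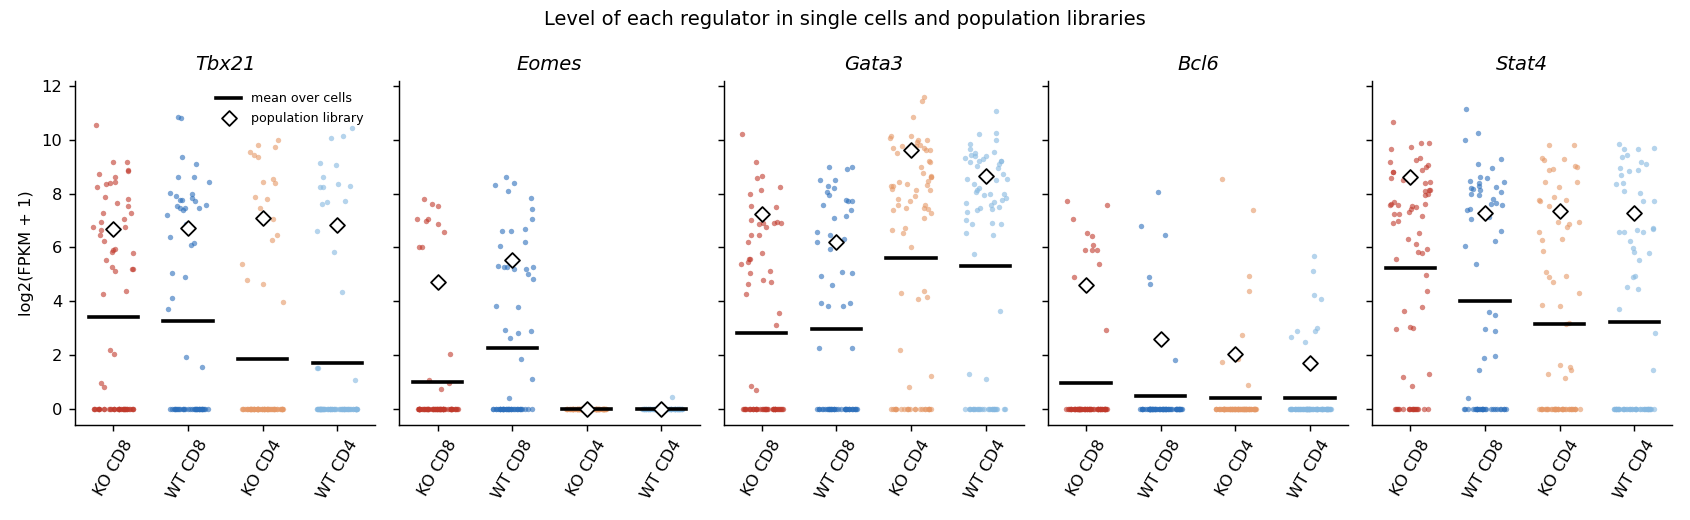
Level of each regulator, as log2(FPKM + 1), in every kept cell of the 4 groups (points), with the mean over cells (bar) and the population library of the group (diamond). Eomes points stand above 0 in the CD8 groups, where the means were 1.00 in KO and 2.26 in WT, and in 1 CD4 cell.

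Tbx21 was found more often in CD8 than in CD4 cells. In labelled-KO CD8 cells it ranged over 0, 2.02 and 1497 FPKM (lowest, median and highest cell), and in WT CD8 cells over 0, 0 and 1835 FPKM. It was above 0 in 39 of 74 labelled-KO CD8 cells (52.7%, interval 40.8 to 64.4%) and 31 of 67 WT CD8 cells (46.3%, 34 to 58.9%). Among CD4 cells, 19 of 78 labelled KO had it (24.4%, highest 1017 FPKM) as did 19 of 79 WT (24.1%, highest 1398 FPKM). The order of the shares was thus labelled-KO CD8, WT CD8, labelled-KO CD4, WT CD4, and each neighbouring pair had overlapping intervals. Between lineages, the labelled-KO CD8 interval did not overlap the labelled-KO CD4 one (15.3 to 35.4%). The WT CD8 and WT CD4 intervals did overlap (WT CD4 15.1 to 35%). Mean log2(FPKM + 1) was 3.43 ± 3.66 in labelled-KO CD8 and 3.28 ± 3.84 in WT CD8 (SD over 74 and 67 cells), a difference of 0.15 that was -0.34 when FPKM was averaged before taking the log and -0.51 after thinning to 100000 reads. In CD4 cells the means were 1.86 ± 3.42 in labelled KO and 1.70 ± 3.35 in WT (SD over 78 and 79 cells), a difference of 0.16 that was -0.01 when FPKM was averaged first. No direction between genotypes is read from these values. Where the gene was found, its median was 107.4 FPKM in labelled-KO CD8, 186.5 in WT CD8, 235.5 in labelled-KO CD4 and 299.3 in WT CD4 cells, so CD4 cells had it less often and not at a lower level per cell that had it.

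Eomes was nearly confined to CD8 cells in these libraries and was found less often in those labelled KO. It was above 0 in 14 of 74 labelled-KO CD8 cells (18.9%, interval 10.7 to 29.7%) and 29 of 67 WT CD8 cells (43.3%, 31.2 to 56%), and the intervals did not overlap. The highest cell had 220.9 FPKM in labelled-KO CD8 and 387.1 FPKM in WT CD8, and the median cell had 0 in both. Among CD4 cells it was found in 0 of 78 labelled KO, which allows a share of cells with a value above 0 of up to 3.85% (3 of 78), and in 1 of 79 WT at 0.35 FPKM. Mean log2(FPKM + 1) was 1.00 ± 2.39 in labelled-KO CD8 and 2.26 ± 2.99 in WT CD8 (SD over 74 and 67 cells), a difference of -1.26. Above 10 FPKM the numbers were 10 labelled-KO CD8 and 22 WT CD8 cells. In the cells that had it, the mean log2 level was 5.31 ± 2.76 in labelled KO and 5.22 ± 2.24 in WT (SD over 14 and 29 cells). On this measure the gap lay in how many cells had Eomes. The median in those cells was 104.69 FPKM in labelled KO and 37.45 FPKM in WT. The level per cell with Eomes thus depended on the measure.

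Stat4 was the most often detected member in CD8 cells. In labelled-KO CD8 cells it ranged over 0, 122.98 and 1605 FPKM (lowest, median and highest cell), and in WT CD8 cells over 0, 6.73 and 2261 FPKM. It was above 0 in 55 of 74 labelled-KO CD8 cells (74.3%, 62.8 to 83.8%) and 39 of 67 WT CD8 cells (58.2%, 45.5 to 70.2%). In CD4 cells the numbers were 39 of 78 labelled-KO cells (50%) and 36 of 79 WT cells (45.6%). In the order labelled-KO CD8, WT CD8, labelled-KO CD4 and WT CD4, each neighbouring pair had overlapping intervals. Between lineages, the labelled-KO CD8 interval did not overlap the labelled-KO CD4 one (38.5 to 61.5%). The WT CD8 and WT CD4 intervals did overlap (WT CD4 34.3 to 57.2%). Mean log2(FPKM + 1) was 5.25 ± 3.69 in labelled-KO CD8 and 4.01 ± 3.96 in WT CD8, a difference of 1.24, and 3.14 ± 3.66 in labelled-KO CD4 and 3.23 ± 3.83 in WT CD4, a difference of -0.10. The CD8 difference varied with the number of genes detected. Below 2500 genes Stat4 was found in 9 of 16 labelled-KO and 6 of 21 WT CD8 cells, with mean log2 levels of 3.69 in labelled KO and 1.67 in WT. At 2500 to below 3500 genes it was found in 33 of 41 labelled-KO and 15 of 23 WT CD8 cells, with means of 5.74 in labelled KO and 4.53 in WT. At 3500 genes or more it was found in 13 of 17 labelled-KO and 18 of 23 WT CD8 cells, with means of 5.52 in labelled KO and 5.63 in WT. The labelled-KO cells were thus higher in the lower and middle ranges and not in the highest, and the part of depth was not tested. The difference was 0.51 over cells with at least 2000 genes, 0.42 after thinning to 100000 reads and -0.11 over cells with at least 3500 genes, the last chosen after the values were seen.

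Gata3 was the reverse of Tbx21, with the CD4 cells higher. In CD8 cells it was found in 34 of 74 labelled KO (45.9%, 34.3 to 57.9%) and 31 of 67 WT (46.3%, 34 to 58.9%), with a median of 0 in both and highest cells of 1203 and 509 FPKM. In CD4 cells it was found in 55 of 78 labelled KO (70.5%, 59.1 to 80.3%) and 52 of 79 WT (65.8%, 54.3 to 76.1%), with medians of 177.06 and 170.5 FPKM and highest cells of 3114 and 2122 FPKM. Mean log2(FPKM + 1) was 2.81 ± 3.38 in labelled-KO CD8 and 2.99 ± 3.51 in WT CD8, and 5.61 ± 4.13 in labelled-KO CD4 and 5.30 ± 4.13 in WT CD4 (SD over the cells counted above). The differences between labels were -0.17 in CD8 and 0.32 in CD4 cells, and -0.01 in CD4 cells matched on genes detected. From high to low the shares ran labelled-KO CD4, WT CD4, WT CD8, labelled-KO CD8, and neighbours in that order had overlapping intervals. Between lineages, the labelled-KO CD4 and CD8 intervals did not overlap, and the WT ones did.

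Bcl6 was the least often detected member in CD8 cells and, after Eomes, in CD4 cells. Its shares were 12 of 74 labelled-KO CD8 cells (16.2%, 8.67 to 26.6%), 6 of 67 WT CD8 cells (8.96%, 3.36 to 18.5%), 8 of 78 labelled-KO CD4 cells (10.3%) and 9 of 79 WT CD4 cells (11.4%), and all 4 intervals overlapped. Its highest cells had 211.5, 266.02, 367.4 and 50.7 FPKM in the same order, and the median cell was at 0 in every group. Mean log2(FPKM + 1) was 0.98 ± 2.29 in labelled-KO CD8 and 0.49 ± 1.68 in WT CD8, and 0.42 ± 1.49 in labelled-KO CD4 and 0.42 ± 1.23 in WT CD4. The differences were 0.49 and 0.00. Prdm1, which encodes the factor that Bcl-6 opposes, was above 0 in 17.6% of labelled-KO CD8, 28.4% of WT CD8, 21.8% of labelled-KO CD4 and 36.7% of WT CD4 cells.

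**Figure D2:**
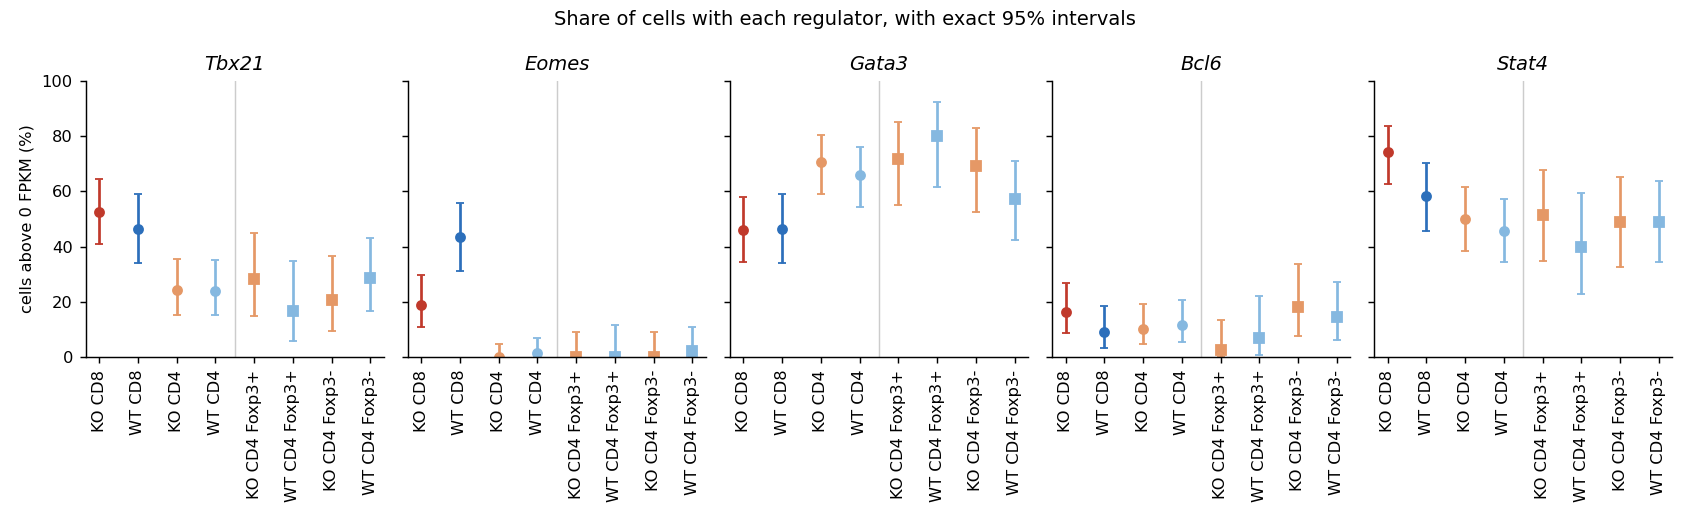
Share of cells above 0 FPKM for each regulator in the 4 groups and, right of the grey line, in CD4 cells with and without Foxp3 above 0; bars are exact 95% intervals for counting error. Eomes stood at 18.9% in KO CD8 and 43.3% in WT CD8 and near 0 in CD4 cells, while Gata3 was highest in CD4 cells.

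Genes found in 10% or more of the cells on either side were counted, and a difference of at least 1 on the log2 scale was used to set the members against all genes. Between labelled-KO and WT CD8 cells, 5.94% of 9031 genes were higher by that much and 3.82% were lower. Of the 5 members, Stat4 was past that size on the higher side, Eomes on the lower side, and the other 3 lay inside it. Between labelled-KO and WT CD4 cells, 7.73% of 8176 genes were higher and 0.342% lower by that much, and none of the 4 members that passed the detection filter was past it, Eomes being below the filter. As TPM, which rescales each cell to a fixed sum, 85% of the CD4 genes past that size were higher, against 95.8% as deposited. The median difference over all genes was -0.08 in CD8 and 0.17 in CD4 cells.

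**Figure D3:**
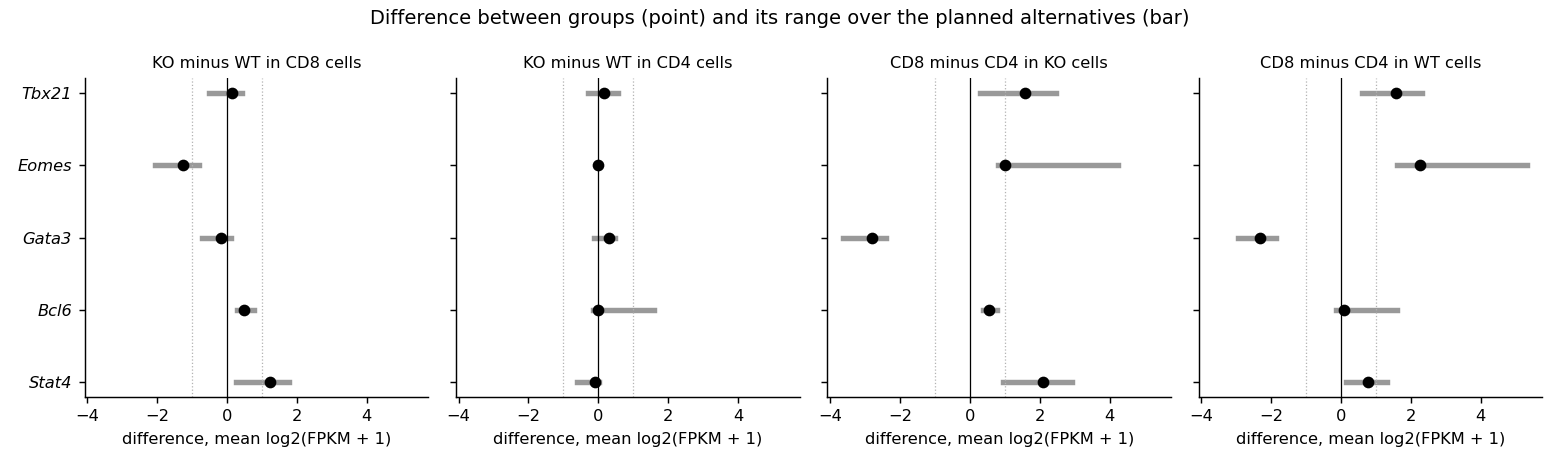
Difference in mean log2(FPKM + 1) for each regulator in 4 comparisons (point) with its range over the other settings listed under processing (bar); dotted lines mark a difference of 1. Gata3 lay below -1 in both CD8 minus CD4 comparisons under each of those settings, and Eomes, KO minus WT in CD8 cells, was -1.26 as reported.

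The comparison of CD8 with CD4 cells separated the members by lineage. In the cells labelled KO, the differences, CD8 minus CD4, were 1.57 for Tbx21, 1.00 for Eomes, 2.11 for Stat4, 0.56 for Bcl6 and -2.80 for Gata3. In WT cells they were 1.58 for Tbx21, 2.26 for Eomes, 0.78 for Stat4, 0.07 for Bcl6 and -2.31 for Gata3. Tbx21, Eomes and Stat4 were past 1 on the higher side in labelled-KO cells, where 7.7% of 8473 genes were, and Tbx21 and Eomes were in WT cells, where 14.1% of 8961 genes were. Gata3 was past 1 on the lower side in both genotypes, as were 2.79% of genes in labelled-KO cells and 2.08% in WT cells. Without cells that had any NK marker, a setting added after the data were seen, the labelled-KO differences of Tbx21 and Eomes were 0.69 and 0.54, and the WT difference of Tbx21 was 1.15. With FPKM averaged before taking the log, Tbx21 differed by 0.28 in labelled-KO and 0.61 in WT cells and was past 1 in neither, while Bcl6 differed by 1.60 in WT cells.

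Markers of NK and innate lymphoid cells, which also use T-bet and Eomesodermin, were found more often with Tbx21 in both CD8 groups. They were also found more often with Eomes in the labelled-KO CD8 cells. At least 1 of 9 such markers was above 0 in 34 of 74 labelled-KO CD8 cells and 16 of 67 WT CD8 cells, and in 7 of 78 labelled-KO CD4 cells and 5 of 79 WT CD4 cells. All 9 were seen in each CD8 group, and the summed level per cell ran from 0 to 19325 FPKM in labelled-KO CD8 and from 0 to 4522 FPKM in WT CD8, with a median of 0 in both. In labelled-KO CD8 cells, 10 of 14 with Eomes had a marker and 24 of 60 without Eomes did. In WT CD8 cells the numbers were 7 of 29 with Eomes and 9 of 38 without, which are nearly equal shares. Between labels the markers and Eomes ran opposite ways, the markers being commoner in labelled KO and Eomes in WT. Tbx21 went with the markers in both, in 23 of 39 cells with it and 11 of 35 without it in labelled KO, and in 10 of 31 and 6 of 36 in WT. Cells with Tbx21 also had more genes detected. The median was 3399 with it and 2604.5 without it in WT CD8, and 2963 and 2749 in labelled-KO CD8. The part of depth was not tested. Activated CD8 cells can also transcribe NK receptors, and the part of NK cells in the Tbx21 values was not tested further. The Eomes difference between labelled-KO and WT CD8 cells was -1.70 without the cells that had any marker.

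CD4 cells were divided by Foxp3 into 39 labelled-KO and 30 WT cells above 0 and 39 labelled-KO and 49 WT cells at 0. A 0 can be a missed transcript, and the median number of genes in cells at 0 was 2500 in labelled KO and 2119 in WT. In cells above 0 it was 2809 in labelled KO and 2822 in WT. Foxp3 was above 0 in 3 of 74 labelled-KO CD8 and 0 of 67 WT CD8 cells. Gata3 was found in 28 of 39 labelled-KO Foxp3-positive cells (71.8%) and 24 of 30 WT ones (80%), and in 27 of 39 labelled-KO Foxp3-negative cells (69.2%) and 28 of 49 WT ones (57.1%).

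Among Foxp3-positive cells, the mean log2 level of Gata3 was 5.59 ± 4.19 in labelled KO and 6.53 ± 3.81 in WT (SD over 39 and 30 cells), a difference of -0.94. Among Foxp3-negative cells it was 5.64 ± 4.13 in labelled KO and 4.54 ± 4.18 in WT (SD over 39 and 49 cells), a difference of 1.10, which was 0.35 when cells were matched on genes detected. Tbx21 was found in 11 of 39 labelled-KO and 5 of 30 WT Foxp3-positive cells, a difference in mean log2 level of 0.90, and in 8 of 39 labelled-KO and 14 of 49 WT Foxp3-negative cells, a difference of -0.39. Stat4 differed by 0.50 and -0.58 in the same comparisons, with 51.3% of labelled-KO and 40% of WT Foxp3-positive cells and 48.7% of labelled-KO and 49% of WT Foxp3-negative cells above 0. Bcl6 was found mainly without Foxp3, in 1 of 39 labelled-KO and 2 of 30 WT Foxp3-positive cells and in 7 of 39 labelled-KO and 7 of 49 WT Foxp3-negative cells.

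No member was past 1 between genotypes in Foxp3-positive cells, where 7.92% of 9030 genes were higher and 5.26% lower. In Foxp3-negative cells Gata3 alone was past 1, on the higher side, where 12.5% of 8041 genes were, with 1.26% on the lower side. As TPM, 78.4% of the genes past 1 there were higher, against 90.9% as deposited. Between Foxp3-positive and Foxp3-negative cells, Gata3 differed by -0.05 in labelled KO and was higher by 1.98 in WT. Past 1 on the higher side were 14.9% of 8786 genes in labelled KO and 22.7% of 8588 in WT, with 2.99% and 1.73% on the lower side, and no member was past 1 in labelled KO. The WT value was 0.56 in cells matched on genes detected.

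The 2 T-box genes were often found in the same CD8 cell. Eomes was above 0 in 9 of 39 labelled-KO CD8 cells with Tbx21 (23.1%) and 5 of 35 without it (14.3%), and in 18 of 31 WT CD8 cells with Tbx21 (58.1%) and 11 of 36 without it (30.6%). Cells with both made up 12.2% of labelled-KO CD8 and 26.9% of WT CD8 cells, and cells with Tbx21 alone 40.5% and 19.4% of the same groups. The median number of genes in labelled-KO CD8 cells was 2963 with Tbx21 and 2749 without it, and in WT CD8 cells 3399 and 2604.5. Cells with Tbx21 thus had more genes detected, most in WT cells, and the part of this in the shares was not tested.

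Tbx21 and Gata3, known as opposing factors in helper cells, did not separate the cells. In labelled-KO CD4 cells Gata3 was found in 14 of 19 cells with Tbx21 (73.7%) and 41 of 59 without it (69.5%). In WT CD4 cells the numbers were 18 of 19 (94.7%, 74 to 99.9%) and 34 of 60 (56.7%, 43.2 to 69.4%). In CD8 cells Gata3 was found in 21 of 39 labelled-KO cells with Tbx21 and 13 of 35 without it, and in 22 of 31 WT cells with Tbx21 and 9 of 36 without it. Cells with both genes were 28.4% of labelled-KO CD8, 32.8% of WT CD8, 17.9% of labelled-KO CD4 and 22.8% of WT CD4 cells. Stat4 was found in 30 of 39 labelled-KO CD8 cells with Tbx21 and 25 of 35 without it, in 25 of 31 and 14 of 36 WT CD8 cells, in 7 of 19 and 32 of 59 labelled-KO CD4 cells, and in 10 of 19 and 26 of 60 WT CD4 cells. Bcl6 with Tbx21 was rare, in 5 labelled-KO CD8, 1 WT CD8, 1 labelled-KO CD4 and 3 WT CD4 cells. In labelled-KO CD4 cells the median number of genes was 3057 with Tbx21 and 2599 without it. In WT CD4 cells it was 2574 and 2263.5, and the part of genes detected in these shares was not tested.

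**Figure D4:**
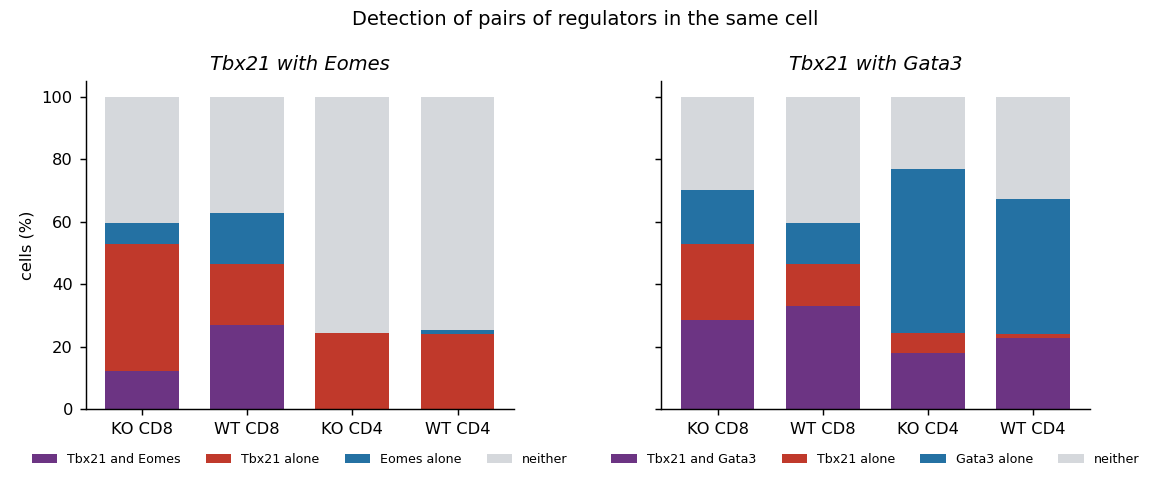
Share of cells with both genes, either gene alone or neither, above 0 FPKM, for Tbx21 with Eomes and Tbx21 with Gata3 in the 4 groups. Cells with Tbx21 and Eomes were 12.2% of KO CD8 and 26.9% of WT CD8 cells, and cells with Tbx21 and Gata3 occurred in all 4 groups.

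The Eomes difference in CD8 cells was concentrated in cells with Mki67, a gene of dividing cells that was looked at after the values were seen. Among cells with Mki67, Eomes was found in 1 of 12 labelled KO (8.33%, 0.211 to 38.5%) and 20 of 26 WT (76.9%, 56.4 to 91%). Among cells without it, Eomes was found in 13 of 62 labelled KO (21.0%, 11.7 to 33.2%) and 9 of 41 WT (22%, 10.6 to 37.6%). The difference in mean log2 level was -3.46 in the cells with Mki67 and -0.05 in those without. The median number of genes was 3596.5 in labelled-KO and 4549 in WT cells with Mki67, and 2770 in labelled-KO and 2655 in WT cells without it. Cells with Mki67 thus had more genes detected, most in WT, and the part of this was not tested. Over all CD8 cells, not split by Mki67, the matched and thinned differences were -1.22 and -1.61.

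Tbx21 ran otherwise in the same cells. Among CD8 cells with Mki67 it was found in 10 of 12 labelled KO and 13 of 26 WT, and among those without it in 29 of 62 labelled KO and 18 of 41 WT. Pdcd1, the gene of the coinhibitory receptor PD-1, also chosen after the values were seen, divided Eomes in WT cells. Eomes was found in 6 of 21 labelled-KO CD8 cells with Pdcd1 and 8 of 53 without it, and in 27 of 41 WT CD8 cells with Pdcd1 and 2 of 26 without it. The number of genes detected moved with Pdcd1 as well. The median number of genes in WT CD8 cells was 3676 with Pdcd1 and 2461.5 without it, and in labelled-KO CD8 cells 3171 and 2777. The part of genes detected in this split was not tested. By genes detected, Eomes was found in 2 of 16 labelled-KO and 3 of 21 WT cells under 2500 genes, in 8 of 41 labelled-KO and 10 of 23 WT cells with 2500 to below 3500, and in 4 of 17 labelled-KO and 16 of 23 WT cells with 3500 or more.

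**Figure D5:**
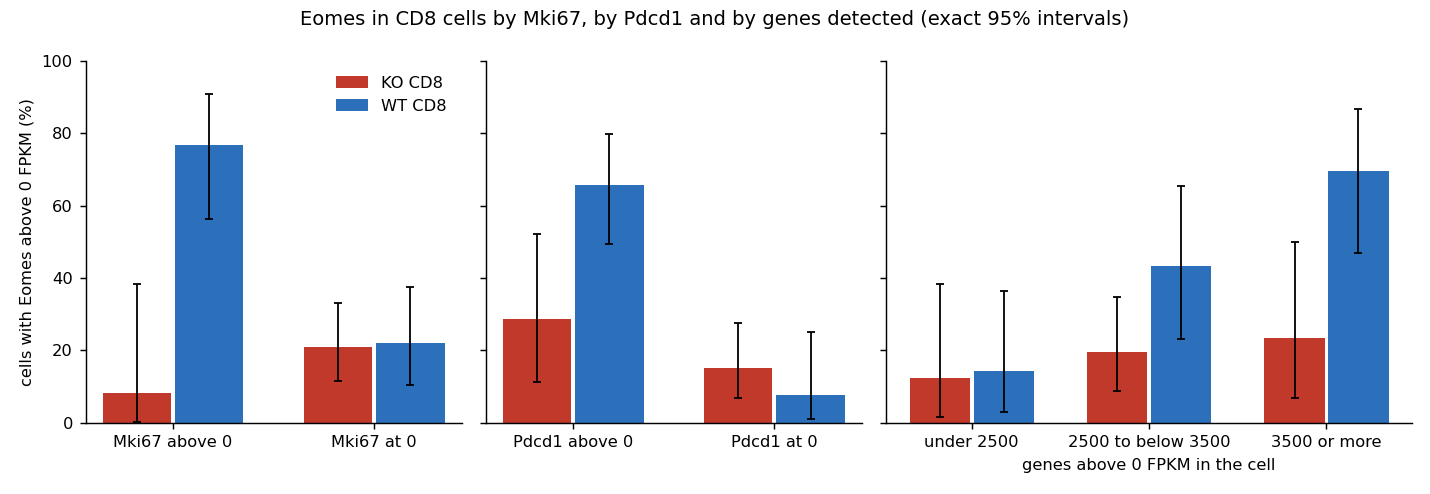
Share of CD8 cells with Eomes above 0 FPKM in KO (red) and WT (blue), by Mki67, by Pdcd1 and by the number of genes detected, with exact 95% intervals for counting error. In cells with Mki67 the share was 8.33% in KO and 76.9% in WT, and in those without it 21.0% in KO and 22% in WT.

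The population libraries gave the same lineage pattern for Eomes and Gata3 and another one for Tbx21. In a pooled library, fewer cells with a transcript and less transcript per cell cannot be told apart. Eomes was at 25.5 FPKM in labelled-KO CD8 and 45 in WT CD8, and listed at 0 in both CD4 libraries. Gata3 was at 151.6 and 72.8 FPKM in labelled-KO and WT CD8, and at 793 and 399 FPKM in labelled-KO and WT CD4. Tbx21 was nearly level, at 102.7, 105.8, 134.6 and 113.2 FPKM in labelled-KO CD8, WT CD8, labelled-KO CD4 and WT CD4, so its CD8 weighting in single cells was not seen there. The 5 highest single CD4 cells held 60.5% of the labelled-KO and 66% of the WT sum of Tbx21 FPKM.

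Stat4 was at 393 FPKM in the labelled-KO CD8 library and 153.8 in the WT one, and at 161.1 and 154.9 FPKM in the labelled-KO and WT CD4 libraries. Bcl6 was at 23.1 FPKM in labelled-KO CD8 and 5.09 in WT CD8, and at 3.14 and 2.23 FPKM in labelled-KO and WT CD4. The 2 CD8 libraries held unlike levels of markers of other cell types, and which cells that RNA came from was not determined. The median log2 level of the 9 NK markers was 7.46 in labelled KO and 3.14 in WT, of the 5 class II markers 11.8 and 5.36, and of the 6 melanoma markers 2.12 and 10.8. In both libraries 4 of 5 B cell markers were at 0. The part of such RNA in the population values was not tested, and each is 1 library.

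The genes around the members were described by lists of known partners and targets, each set beside the median of all genes tested. Of 21 type 1 genes detected in CD8 cells, 7 were higher and 14 lower in labelled KO than in WT, with 4 and 8 past 1 and a median difference of -0.66, against -0.08 over all genes. Of all genes tested, 5.94% were higher and 3.82% lower by at least 1. Il12rb2 and Il18r1, receptor chains for IL-12 and IL-18 that act with Stat4 and T-bet, differed by 2.00 and 1.88. Ccl4, a chemokine, and Gzmb, a cytotoxic granule protease, differed by -2.36 and -2.24. In CD4 cells 15 of 21 type 1 genes were higher and 6 lower in labelled KO, with a median of 0.36 against 0.17 over all genes. Most of all genes were higher there too: 33% of those tested lay below Bcl6, which itself differed by -0.003. Gzmb differed by 1.52, and Cxcr3, a type 1 chemokine receptor, by -1.72.

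Most type 2 genes were, like Gata3, higher in CD4 than in CD8 cells, and so were regulatory T cell markers. Of 8 detected in the labelled-KO comparison of CD8 with CD4, 6 were lower by at least 1 in CD8 cells and 0 higher by that much, with a median of -1.74 against 0.10 over all genes. Of all genes tested there, 2.79% were lower and 7.7% higher by at least 1. In WT cells 4 of 8 were lower by at least 1 and 0 higher, with a median of -1.19 against 0.33. Of all genes tested in WT, 2.08% were lower and 14.1% higher by at least 1. Ccr4, a type 2 and regulatory cell chemokine receptor, differed by -2.83 in labelled KO, and Ccr8, another, by -2.44 in WT. All 5 regulatory T cell markers were also lower by at least 1 in CD8 cells, in both genotypes, beside the same 2.79% and 2.08% of all genes. Within CD4 cells the type 2 list went with Foxp3: between Foxp3-positive and Foxp3-negative cells, 8 of 8 were higher in labelled KO, 7 by at least 1, with a median of 1.66 against 0.19 over all genes. In WT 8 of 8 were higher, 6 by at least 1, with a median of 2.34 against 0.38. Over all genes 14.9% were higher by at least 1 in labelled KO and 22.7% in WT. The median number of genes in labelled KO was 2809 with Foxp3 and 2500 without it, and in WT 2822 and 2119. The part of genes detected was not tested for this list. The part of regulatory cells in the lineage difference was not tested. Between labelled-KO and WT CD8 cells, 3 of 6 type 2 genes were higher and 3 lower. Il4ra, the IL-4 receptor chain, differed by 1.63, and Il10 and Maf, a cytokine and a factor that induces it, by -1.18 and -1.10. Between labelled-KO and WT CD4 cells, where most of all genes were higher, 7 of 8 were higher. Their median was 0.49 against 0.17 over all genes, and Ccr4 differed by 1.62.

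Type 1 genes went the other way between the lineages. Of 23 detected in labelled-KO cells, 10 were higher and 3 lower by at least 1 in CD8 than in CD4 cells. Their median was 0.85, against 0.10 over all genes, of which 7.7% were higher and 2.79% lower by at least 1. Of 22 in WT cells, 12 were higher and 1 lower by at least 1, with a median of 1.23 against 0.33. Of all genes tested in WT, 14.1% were higher and 2.08% lower by at least 1. Ccl5, a chemokine of cytotoxic cells, differed by 6.63 in labelled KO and 7.17 in WT. The follicular helper list held 12 detected genes in each lineage. Between labelled-KO and WT CD8 cells 9 were higher and 3 lower, with a median of 0.63 against -0.08 over all genes. Tcf7, a factor of naive and stem-like cells, differed by 2.54 and Pdcd1 by -3.92. In CD4 cells 5 were higher and 7 lower, with a median of -0.07 against 0.17 over all genes. Of 19 known regulators of the members, 10 were higher and 9 lower in labelled-KO than in WT CD8 cells. Socs3, a feedback inhibitor of STAT3 signalling, differed by 2.04 and the Ikaros family gene Ikzf3 by -2.46. In CD4 cells, where most of all genes were higher, 15 of 19 were higher, led by Irf1 at 2.12 and Socs1 at 1.83. Their median was 0.58, against 0.17 over all genes. Of 5 type 17 genes detected in CD8 and 6 in CD4 cells, none differed by 1 or more between labels. Of all genes tested between labels, 5.94% were higher and 3.82% lower by that much in CD8 cells. In CD4 cells 7.73% were higher and 0.342% lower.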

How the data were processed

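Single-cell and population Smart-seq2 libraries, 378 in all, were grouped by the genotype, cell type and library kind in their titles, and 0 columns of the table were left unmapped. Bowtie, RSEM and mm10 are named in the submitters' processing notes, without versions, and no source used here names the annotation. Per the labels' file description, the deposited unit is FPKM, which the authors scaled with TMM factors. FPKM hides depth, and RSEM shares reads between similar transcripts.

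Cells with at least 1000 genes above 0 were kept, and no doublet caller was run on cells sorted into wells. Means of log2(FPKM + 1), with a pseudocount of 1, understate the fold of low genes, and also follow the share of cells above 0. With 1 sample a group no test was made, and SDs are over cells. The members and lists were chosen with earlier results of these data known. Named genes were the 5 members, the 2 highest and 2 lowest differences of each list (the main ones are given, and 1 gene is not reported here), Il27ra, Foxp3, Prdm1, Cd4, Cd8a and Cd8b1, and the 4 genes most like each member. Mki67, Pdcd1 and Klrc1 were chosen after their values were seen. Depth was estimated from the spacing of low FPKM values with GENCODE M21 transcript lengths; its absolute scale rests on those lengths, and it served for description and for thinning to 100000 reads. On simulated data the estimator was tested with 60 libraries over 23420 genes (median ratio to the true depth 1, 96.7% within 25%). Differences, calls and likeness were also tested on simulated data. Python 3.11.15, pandas 2.3.3 and scipy 1.17.1 were used. Alternatives changed the gene minimum, pseudocount, scaling, averaging, the Foxp3 cut and the cells left out, matched cells on genes detected or thinned reads.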

Additional observations from a re-analysis of the deposited data

Results flagged for a closer look

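Gata3 ran opposite ways between labels in the CD4 subsets: the difference, labelled KO minus WT, was -0.94 in Foxp3-positive cells and 1.10 in Foxp3-negative cells. The Foxp3-negative value was below 1 over every library, as TPM, matched on genes detected and thinned. There 12.5% of all genes were higher by at least 1. The Foxp3-positive value was past 1 in size as TPM and matched. Only the WT CD4 titles carry p3, and neither difference can be told apart from it. The difference between these differences was not tested, since each subset comes from 1 sample per label. Stat4 differed by 1.24 in CD8 and by -0.10 in CD4 cells, labelled KO minus WT, and that difference was not tested either. The CD8 value was below 1 with at least 2000 genes, matched and thinned, and -0.11 over cells with at least 3500 genes.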

How the results depend on the processing

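No paired analysis was possible because each group is 1 sample and the library numbers do not link cells of different groups; for the same reason no replicate could be left out. Of 475 single-cell differences of single members under the alternatives, 415 stayed on their side of a difference of 1. That count includes Eomes within CD4 cells, which was below the detection filter and so stayed by construction. Of 92 shares, 83 stayed inside the interval of the share as reported. The sign changed in 37 differences (Eomes in CD4 cells not counted), and in 1 of these the value as reported was at least 0.5 in size: Stat4 in CD8 cells, labelled KO minus WT, was -0.11 over cells with at least 3500 genes, a setting added after the data were seen. The rest were small values, Tbx21 between labels, Gata3 and Bcl6 among them, so their directions are not settled here. The number of members past a difference of 1 moved as follows. For CD8 cells, labelled KO minus WT, it was 2 and became 1, Eomes alone, with at least 2000 genes, with the log2 of mean FPKM, without cells lacking B2m or Cd3 genes, matched on genes detected and thinned. It became 1, Stat4 alone, over every library (Eomes -0.80) and over cells without Mki67 (Eomes -0.05). For CD4 cells it was 0 and became 1, Bcl6 at 1.58, with the log2 of mean FPKM. For Foxp3-positive cells, labelled KO minus WT, it was 0 and became 1, Tbx21, with at least 2000 genes, and 1, Gata3, as TPM, without cells lacking B2m or Cd3 genes, without cells with the other coreceptor, matched, and without NK markers. It became 2, Tbx21 and Gata3, with a pseudocount of 0.1 and without cells with 3 macrophage, class II or dendritic markers. For Foxp3-negative cells it was 1, Gata3, and became 0 over every library, as TPM, without cells lacking B2m or Cd3 genes and matched, and 2, with Stat4, at 2000 genes or without the other coreceptor. For CD8 minus CD4 in labelled KO it was 4 and became 2 with the log2 of mean FPKM (Eomes and Gata3) and without NK markers (Gata3 and Stat4). For Foxp3-positive minus Foxp3-negative cells it was 0 in labelled KO and became 2, Gata3 and Stat4, over every library and 1, Bcl6, with the log2 of mean FPKM. In WT it was 1, Gata3, and became 2 with at least 2000 genes (Gata3 and Stat4), with a pseudocount of 0.1, without cells lacking B2m or Cd3 genes, without myeloid markers and without the other coreceptor (each Gata3 and Tbx21), and matched (Tbx21 and Stat4, Gata3 being lost). For the WT comparison of CD8 with CD4 it was 3 and ran from 2 to 4, with Tbx21 lost over every library and with the log2 of mean FPKM, where Bcl6 was gained. Members also changed under an equal count: with the log2 of mean FPKM, Bcl6 stood in place of Gata3 in Foxp3-negative cells between labels and in WT cells between Foxp3 classes, and after thinning Stat4 stood in place of Gata3 in Foxp3-negative cells. Among CD8 cells between labels, Tbx21 stood in place of Stat4 in cells with Mki67 and Bcl6 in cells with at least 3500 genes, both added after the data were seen. Eomes, at 1.00 between labelled-KO CD8 and CD4 cells, was lost over every library, as TPM, matched and thinned. The cause was not tested. TPM moved the median of all genes by -0.10 at most, in the WT Foxp3 comparison. Thinning kept 73 of 74 labelled-KO CD8, 55 of 67 WT CD8, 78 of 78 labelled-KO CD4 and 73 of 79 WT CD4 cells, and the Eomes shares were then 15.2% in labelled-KO and 44.2% in WT CD8 cells. The Bcl6 shares rest on 6 to 12 cells a group, and the part of depth in them was not tested.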

Other observations

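Klrc1, which encodes the receptor NKG2A of NK and activated CD8 cells and was chosen after its values were seen, went with both T-box genes. Tbx21 was above 0 in 26 of 36 labelled-KO CD8 cells with Klrc1 and 13 of 38 without it, and in 14 of 22 WT CD8 cells with Klrc1 and 17 of 45 without it. Eomes was above 0 in 11 of 36 and 3 of 38 labelled-KO CD8 cells, and in 12 of 22 and 17 of 45 WT CD8 cells. Bcl6 ran the other way in labelled KO, in 2 of 36 cells with Klrc1 and 10 of 38 without it. Among labelled-KO CD8 cells with Prdm1, 13 of 13 had Stat4, against 42 of 61 without Prdm1, and in WT CD8 cells the numbers were 14 of 19 and 25 of 48. Eomes was found in 7 of 39 labelled-KO CD8 cells with Il27ra and 7 of 35 without it, and in 16 of 26 WT CD8 cells with Il27ra and 13 of 41 without it. Genes detected are not set beside the splits by Klrc1, Prdm1 and Il27ra, and their part was not tested.

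The genes most like each member across cells, by the mean within-group Pearson correlation of log2 levels after a linear fit on genes detected, were compared over 5896 genes. Correlations are weak, share libraries and depth, and are a description only. For Tbx21, over the kept cells of all 4 groups, they were Nkg7 (0.35), Ctsw (0.32), Il2rb (0.28) and Lsmd1 (0.26). For Gata3 they were Crip1 (0.29), Il2rb (0.29), Sh3bgrl3 (0.27) and Ndfip1 (0.26), so Il2rb stood in both lists. For Stat4 they were Ifngr1 (0.28), P2ry10 (0.27), Glipr2 (0.27) and Ms4a4b (0.26), and for Bcl6 Etv6 (0.34), Gpr35 (0.29), Atp2c1 (0.26) and AI607873 (0.26). Eomes could be compared only over the CD8 cells, where Dgkz (0.33), N4bp1 (0.33), Crtc2 (0.32) and Smek1 (0.30) came highest. Among the 76 single-cell libraries under 1000 genes, Tbx21 was above 0 in 1, Gata3 in 1 and the other 3 members in 0.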
